A study of Mus musculus with 23 samples.

Results

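The genes described here encode the ionotropic and metabotropic glutamate receptors of the hippocampus and the scaffold, kinase and adhesion proteins that hold them at the postsynaptic membrane. They were taken by symbol from a fixed list: 4 AMPA, 6 NMDA and 4 kainate receptor subunits, 1 delta receptor, 6 metabotropic receptors, 4 membrane-associated guanylate kinases, 4 guanylate kinase associated proteins, 3 Shank scaffolds, 4 CaMKII subunits and 3 neuroligins. All 39 symbols had a row among the 24421 of the count table, and all 39 were among the 15475 genes with enough counts to be tested. The table came from whole hippocampus of mouse pups on postnatal day 14, in a study of phlebotomy-induced anemia, in which blood is drawn repeatedly from newborn animals. Non-bled controls (NBC) had a needle prick at the neck and no draw. The target hematocrit, which is the share of blood volume held by red cells, was 25% for moderate anemia (mPIA) and 18% for severe anemia (sPIA). Draws of 5.25 µl per g body weight, made 2 times a day from day 3, were replaced after the goal was met by 1 draw of 3.5 µl per g a day. Each level had 4 female and 4 male libraries, except NBC males with 3 (numbered 2, 3 and 4), which gave 6 groups and 23 libraries. The design text describes separate pups, so each library was taken as 1 mouse. The labels do not name the strain.

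Glutamate released by an axon terminal opens AMPA receptors, which carry the fast excitatory current, and NMDA receptors, which pass calcium when the membrane is already depolarised. That calcium activates CaMKII, the abundant kinase of the spine, and guanylate kinase scaffolds, their associated proteins and the Shanks link receptors to the actin cytoskeleton. Metabotropic receptors signal through G proteins on both sides of the synapse, and neuroligins bind axonal neurexins across the cleft. In the rodent hippocampus the postnatal weeks are a period of synapse formation, when receptor subunits of the juvenile type give way to adult ones.

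Library totals ran from 15.2 to 44.4 M counts (M, mega-counts), and levels are given in CPM, the counts of a gene per mega-count. Differences are log2 changes from edgeR's quasi-likelihood test (1 unit is 2-fold) with the standard error (SE), and a gene is said to rise or fall where the Benjamini-Hochberg adjusted p over all 15475 genes lay below 0.05. Markers of the tissue were present: Slc17a7, the vesicular glutamate transporter of forebrain neurons, lay at 1316 to 1903 CPM and Prox1, a marker of dentate granule cells, at 60.6 to 128 CPM over all libraries. Choroid plexus transcripts varied widely, with a summed level of 16.6, 2616 and 4662 CPM in NBC males 2, 3 and 4, 2106 CPM in NBC female 2 and 1399 CPM in sPIA female 2, and at most 257 CPM elsewhere. Library codes in the labels began with 86, 90 or 91 in NBC and mPIA females, with M in mPIA males and with P in sPIA females, NBC males and sPIA males. What the codes stand for is not given. The codes end in a number after the letter S, running from 13 to 16 (sPIA males), 17 to 20 (sPIA females), 38 to 40 (NBC males) and 41 to 44 (mPIA males), and from 48 to 54 and 50 to 55, interleaved, in NBC and mPIA females. In every comparison other than mPIA against NBC in females, the code numbers and the group cannot be told apart.

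Levels per length were compared between genes in NBC females, as CPM per kilobase of exon (mean ± SD, n = 4). Camk2a, the alpha subunit of CaMKII, stood highest at 464 ± 26.2 CPM per kb, followed by the AMPA receptor subunit gene Gria1 at 157 ± 6.03 and by Camk2b at 127 ± 6.01. Next came Gria2 at 72.9 ± 4.52, Dlg4, which encodes the scaffold PSD-95, at 62.4 ± 3.76, and Grin1, which encodes the obligatory NMDA receptor subunit, at 61.9 ± 2.8 CPM per kb. The lowest of the 39 was Grm8, a group III metabotropic receptor, at 0.898 ± 0.233 CPM per kb. Per length Grin2b stood at 3.26 ± 0.461 and Grin2a at 1.57 ± 0.0732 CPM per kb, far below Grin1. Together the 39 genes held 1.37% ± 0.0326 of all counts in females of the NBC group, 1.33% ± 0.0174 with mPIA and 1.47% ± 0.0265 with sPIA (SD, n = 4). In males the share was 1.43% ± 0.123 in NBC (SD, n = 3), 1.55% ± 0.0236 in mPIA and 1.43% ± 0.0961 in sPIA (SD, n = 4). Every sPIA female held at least 1.44%, above the 1.33% to 1.41% of NBC females, while the male groups of NBC and sPIA overlapped. Much of the female difference lay in Camk2a, with means of 3464 CPM in NBC and 4192 CPM in sPIA females, and Gria2, with 1133 and 1375 CPM. Of the 39 changes between these female groups 18 were positive and 21 negative.

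**Figure D1:**
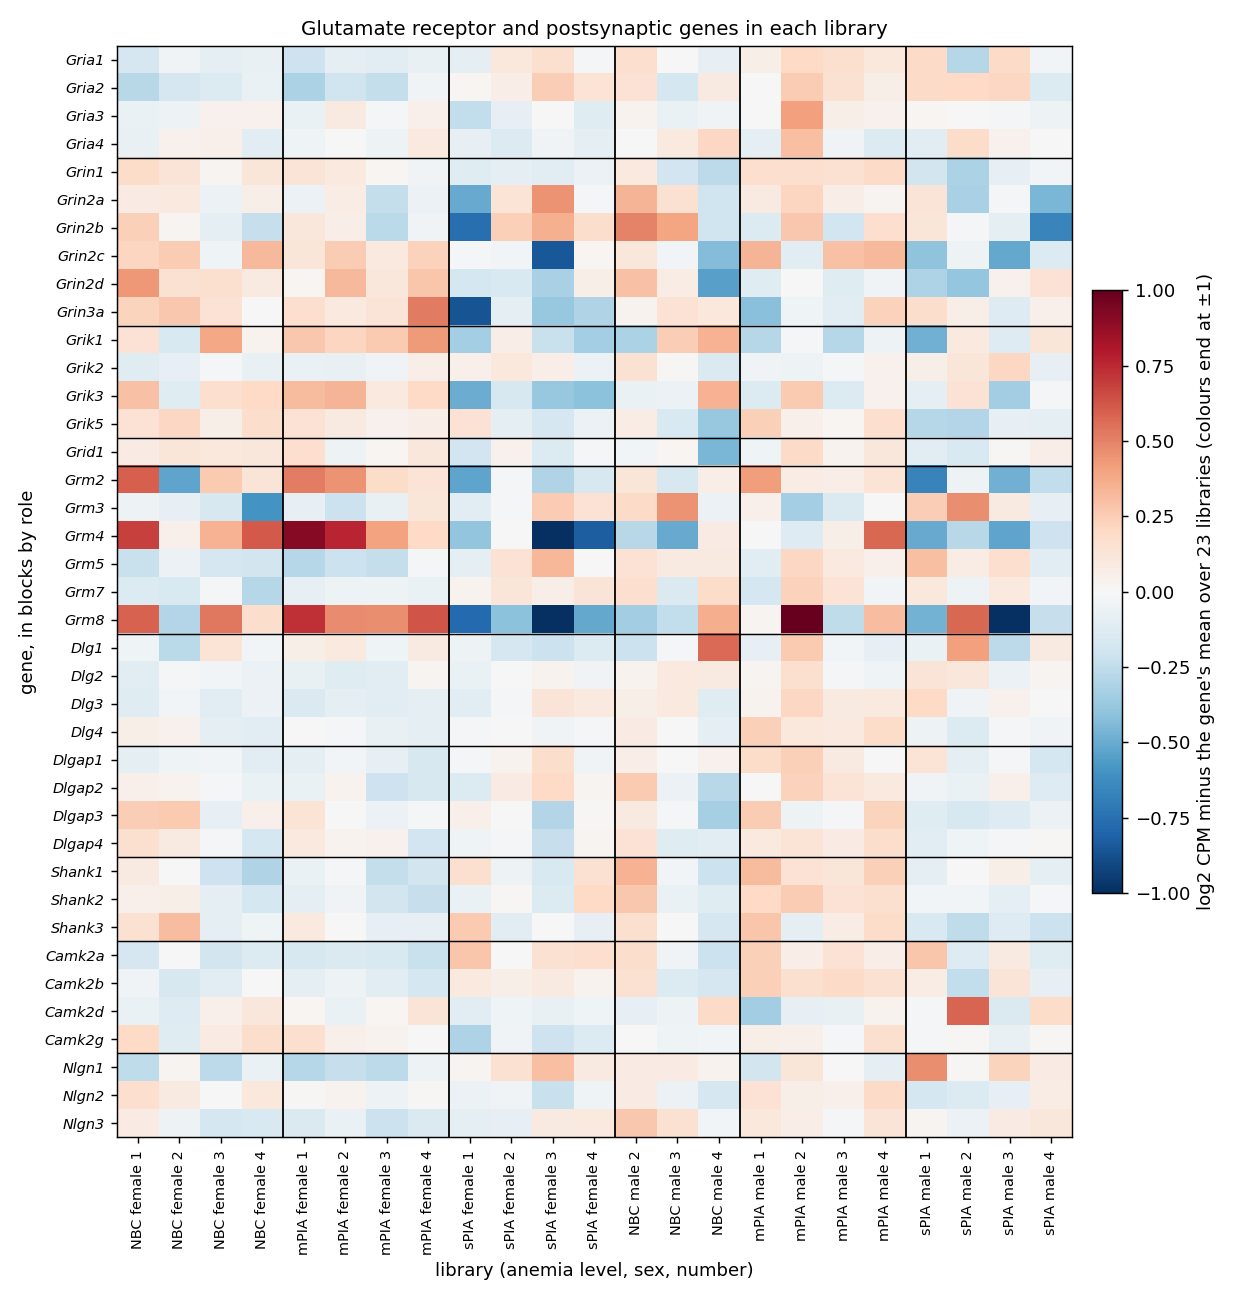
Level of each of the 39 genes (rows, grouped by role) in each of the 23 libraries (columns, grouped by anemia and sex), coloured by log2 CPM minus the gene's mean over libraries. Grm4, Grm8, Grik3 and Grin3a are low in the 4 sPIA female libraries, and most other genes lie near their mean throughout.

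At moderate anemia no difference in these genes was detected in females. None of the 39 passed the test in mPIA against NBC females (edgeR), none had an unadjusted p below 0.05, and DESeq2 called 0. Over all genes 0.00646% passed by edgeR and 0.00497% by DESeq2. In this edgeR fit 55 of all 15475 genes had an unadjusted p below 0.05, so 0 of 39 says little about these genes. Changes ran from -0.12 for Grin2a to 0.29 for Grm8, with a median of -0.03 against -0.01 over all genes tested. Gria1, for instance, lay at 898, 985, 947 and 961 CPM in NBC females and at 872, 946, 938 and 958 CPM in mPIA females, and Dlg4 at 873, 865, 787 and 779 CPM in NBC females and at 833, 829.9, 794 and 781 CPM in mPIA females. In both genes the bled and control libraries overlapped. NBC and mPIA females carried codes of the same series, so this comparison was free of the code difference named above. Same-numbered NBC and mPIA females also share the first part of the code (86, 86, 90 and 91). With it as a block and only these groups in the fit, edgeR called 0 of the 39, beside 0.0409% of all genes. An unadjusted p below 0.05 was found for 2, Shank2 and Nlgn2, beside 406 of 14680 genes.

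In males, moderate anemia came with 23 positive and 16 negative changes among the 39 genes, and none passed the test. Of the 39 genes 0 were called in mPIA against NBC males by edgeR, beside 0.653% of all genes. An unadjusted p below 0.05 was found for 8, 7 of them with a positive change, beside 2475 of all 15475 genes. Grin1 came closest. Its levels were 591, 485 and 463 CPM in the NBC males, and in mPIA males it stood at 621, 623, 616 and 632 CPM, a change of 0.28 ± 0.072 SE, adjusted p = 0.0600. All 4 mPIA males lay above all 3 controls for Grin1, and NBC male 2 was the nearest control. Camk2b, the beta subunit of CaMKII, differed by 0.23 ± 0.074, Grik5, a kainate receptor subunit that needs a partner subunit, by 0.26 ± 0.085, and Dlg4 by 0.16 ± 0.058 (adjusted p = 0.119, 0.124 and 0.156). Grm3, a group II metabotropic receptor found on astrocytes as well as neurons, had a negative change of -0.31 ± 0.14. The median change of the 39 was 0.10, against 0.01 over all genes. DESeq2 called 1 gene, Grin1, beside 2.26% of all genes. Leaving out NBC male 2 gave 5 calls of 39: Grin1 (0.38), Grik5 (0.37), Camk2b (0.33), Shank2 (0.27) and Grik1 (-0.46). Without that library calls also rose over all genes, to 7.17%. The controls left then, NBC males 3 and 4, held 2616 and 4662 CPM of choroid plexus transcripts, against 16.6 CPM in NBC male 2. Leaving out NBC male 4 gave 0 calls of 39 and 0 over all genes. Of the 39, 3 then had an unadjusted p below 0.05, beside 1467 of 15633 genes. With a choroid plexus score in the fit, edgeR called 0 of all genes, and 818 of 15475 had an unadjusted p below 0.05.

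Of the comparisons with controls, that of severe anemia in females was the one in which genes of the 39 passed the test. In sPIA against NBC females 12 of 39 genes (30.8%) passed the test, 5 of them higher and 7 lower. Of the 39, 20 had an unadjusted p below 0.05, beside 4502 of all 15475 genes. Over all genes 16% passed, 8.12% higher and 7.86% lower. DESeq2 called the same 12 genes, beside 20.6% of all genes. Without NBC female 1, 3 of the 39 genes passed, beside 9.19% of all genes, and without sPIA female 3, 5 passed, beside 10.1%. Without NBC female 4 or sPIA female 2, 7 passed, beside 13.47% and 13% of all genes. The genes that rose were Gria2, Grm5, Grm7, Camk2a and Nlgn1, each by less than 0.3 on the log2 scale. The genes that fell were Grin1, Grin3a, Grik3, Grm4, Grm8, Camk2g and Nlgn2, with the largest changes in Grm4 and Grm8. The metabotropic receptors, CaMKII subunits and neuroligins each held genes that rose and genes that fell. The median change of the 39 was -0.06 against -6.2e-05 over all genes tested. The median absolute change was 0.18 in the 39 and 0.17 over all genes. In whole tissue, fewer cells of a type and less RNA per cell cannot be told apart.

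AMPA receptors are tetramers of the subunits encoded by Gria1 to Gria4, and Gria2 encodes the subunit that makes the channel impermeable to calcium once its RNA is edited. Gria2 (chromosome 3, 80681450 to 80802835, minus strand, mm10) lay at 1043, 1125, 1152 and 1212 CPM in NBC females, at 1016, 1102, 1076 and 1237 CPM in mPIA females and at 1283, 1324, 1505 and 1389 CPM in sPIA females. The lowest sPIA female lay above the highest NBC female, and the change was 0.28 ± 0.081 SE, adjusted p = 0.0183. The call was lost on leaving out NBC female 1 (0.25) or sPIA female 3 (0.24), and after removal of each library's trend with GC content and length, described further on, the change was -0.012. Gria1, the major partner of Gria2 in hippocampal pyramidal cells, differed by 0.14 ± 0.078, Gria3 by -0.10 ± 0.071 and Gria4 by -0.064 ± 0.078, and none of them passed. Counts per gene do not tell apart the flip and flop splice forms of these subunits or their edited RNA.

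Of the NMDA receptor subunits, 2 of 6 fell. Grin1 (chromosome 2, 25291181 to 25319187, minus strand) lay at 629.7, 607, 564 and 602 CPM in NBC females, at 604, 593, 562 and 539 CPM in mPIA females and at 509.6, 517, 511 and 532 CPM in sPIA females. Levels of Grin1 in males stood at 591, 485 and 463 CPM in NBC males, at 621, 623, 616 and 632 CPM in mPIA males and at 488, 444, 523 and 542 CPM in sPIA males. The 4 sPIA females were tightly grouped below all NBC and mPIA females, with the change from NBC -0.22 ± 0.066 SE, adjusted p = 0.026, while NBC and sPIA males overlapped. The Grin1 call was lost on leaving out NBC female 1 (-0.19), NBC female 2 (-0.20), NBC female 4 (-0.21), sPIA female 1 (-0.21), sPIA female 2 (-0.21) or sPIA female 3 (-0.20), and with the GC trend removed the change was -0.071. Grin3a (chromosome 4, 49661611 to 49845744, minus strand) encodes a subunit of juvenile receptors that lowers calcium permeability. It lay at 121, 125, 115 and 103 CPM in NBC females, at 116, 111, 114 and 149 CPM in mPIA females and at 57.1, 97.1, 79.5 and 83.9 CPM in sPIA females. Levels of Grin3a in males stood at 106, 115 and 111 CPM in NBC males, at 77.5, 101, 95.6 and 122 CPM in mPIA males and at 117, 108, 94.9 and 107 CPM in sPIA males. Every sPIA female lay below every other female, with a change of -0.55 ± 0.14 SE, adjusted p = 0.00908. The call held in all 8 fits that left out 1 library and with the GC trend removed (-0.59).

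Grin2a and Grin2b encode the subunits whose balance shifts toward Grin2a as forebrain synapses mature. Grin2a lay at 28.8, 29.2, 26.3 and 28.4 CPM in NBC females, at 26.1, 28.8, 23.1 and 26.2 CPM in mPIA females and at 19.2, 30.05, 37.3 and 27.1 CPM in sPIA females. Levels of Grin2a in males stood at 34.4, 30.2 and 23.7 CPM in NBC males, at 29, 31.6, 28.5 and 27.8 CPM in mPIA males and at 29.8, 21.8, 27.1 and 19.9 CPM in sPIA males. Grin2b lay at 96, 83.1, 76 and 69.2 CPM in NBC females, at 88.1, 85, 67.4 and 79.6 CPM in mPIA females and at 48.4, 96.3, 104 and 92 CPM in sPIA females. Levels of Grin2b in males stood at 115, 107 and 71.1 CPM in NBC males, at 73.9, 98.3, 71.5 and 91.6 CPM in mPIA males and at 88.8, 80.8, 76.3 and 51.7 CPM in sPIA males. Both genes overlapped between all groups of a sex and were among the more variable members, and their changes in sPIA females were 0.015 ± 0.15 and 0.073 ± 0.22. Grin2c, a subunit best known from the cerebellum, differed by -0.37 ± 0.16 and Grin2d, found in interneurons, by -0.36 ± 0.14 (adjusted p = 0.112 and 0.0744). All sPIA females lay below all NBC females for Grin2d, at 16.4 to 21.4 CPM against 21.9 to 27.7 CPM.

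Kainate receptors modulate release and excitability, and 1 of their 4 subunit genes fell. Grik3 (chromosome 4, 125490700 to 125714173, plus strand) lay at 93.7, 70.5, 86 and 88 CPM in NBC females, at 95.2, 96.7, 82 and 88.1 CPM in mPIA females and at 54.2, 68.4, 58.9 and 57.5 CPM in sPIA females. Levels of Grik3 in males stood at 73.3, 73.3 and 97.6 CPM in NBC males, at 69.8, 92, 69.6 and 78.8 CPM in mPIA males and at 71.9, 84.6, 60.3 and 76 CPM in sPIA males. The sPIA females lay below all other females and the change was -0.50 ± 0.11 SE, adjusted p = 0.00415. The call held in all 8 fits that left out 1 library and with the GC trend removed (-0.43). Grik1 differed by -0.32 ± 0.14, Grik2 by 0.12 ± 0.066 and Grik5 by -0.19 ± 0.079, and none of the 3 passed. Grid1, a delta receptor that binds cerebellins, differed by -0.18 ± 0.084 (adjusted p = 0.159), with all sPIA females below all NBC females.

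The metabotropic receptors moved in both directions, with 2 of 6 higher and 2 lower. Grm4 (chromosome 17, 27422387 to 27521403, minus strand), a group III receptor that restrains release from the axon terminal, lay at 17, 10.9, 13.4 and 16.1 CPM in NBC females, at 19.8, 17.8, 13.9 and 12.1 CPM in mPIA females and at 8.01, 10.5, 5.18 and 5.95 CPM in sPIA females. In males it lay at 8.68, 7.42 and 11.1 CPM in NBC males, at 10.5, 9.61, 10.9 and 15.6 CPM in mPIA males and at 7.42, 8.7, 7.29 and 9.1 CPM in sPIA males. All 4 sPIA females lay below all NBC and mPIA females, with a change of -0.95 ± 0.20 SE, adjusted p = 0.00257, and the call held in all 8 fits that left out 1 library and with the GC trend removed (-0.76). Grm8 (chromosome 6, 27275119 to 28135178, minus strand), of the same group, lay at 10.9, 5.93, 10.5 and 8.2 CPM in NBC females, at 12, 10.1, 10.01 and 11.2 CPM in mPIA females and at 4.24, 5.46, 3.64 and 5.11 CPM in sPIA females. It was low in every sPIA female and its change was -0.95 ± 0.31 SE, adjusted p = 0.0427. Its NBC values were few and spread, and leaving out any library but NBC female 2 lost the call, with changes from -1.03 to -0.83.

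Grm7 (chromosome 6, 110645581 to 111567230, plus strand), the group III receptor placed at the active zone, went the other way. It lay at 78.4, 77.3, 85 and 70.7 CPM in NBC females, at 81.3, 83.3, 82.9 and 82.3 CPM in mPIA females and at 88, 93.8, 89.7 and 94.2 CPM in sPIA females, with a change of 0.23 ± 0.079 SE, adjusted p = 0.0434 and the sPIA females above all NBC females. The call was lost on leaving out NBC female 1 (0.24), NBC female 2 (0.24), NBC female 4 (0.20), sPIA female 2 (0.23), sPIA female 3 (0.25) or sPIA female 4 (0.23). Grm5 (chromosome 7, 87584168 to 88134907, plus strand) is the group I receptor of the hippocampal postsynapse, tied to Shank through Homer, and lay at 323, 362, 336 and 331 CPM in NBC females, at 309.9, 326, 319 and 372 CPM in mPIA females and at 353, 417, 474 and 377 CPM in sPIA females. Its highest NBC and lowest sPIA values overlapped, and the change was 0.26 ± 0.085 SE, adjusted p = 0.0338. The call was lost on leaving out NBC female 1 (0.25), NBC female 3 (0.27), NBC female 4 (0.26), sPIA female 2 (0.26) or sPIA female 3 (0.18). With the GC trend removed, the changes of Grm7 and Grm5 were 0.19 and 0.10, and neither was called. The group II receptors Grm2 and Grm3 differed by -0.41 ± 0.18 and 0.28 ± 0.13, and neither passed.

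CaMKII is built mainly from the alpha and beta subunits in forebrain, and 1 subunit gene rose and 1 fell. Camk2a (chromosome 18, 60925618 to 60988152, plus strand) lay at 3357, 3748, 3317 and 3432 CPM in NBC females, at 3365, 3409.8, 3393 and 3234 CPM in mPIA females and at 4573, 3780.4, 4194 and 4219 CPM in sPIA females. Levels of Camk2a in males stood at 4248, 3673 and 3241 CPM in NBC males, at 4429, 3945, 4172 and 3941 CPM in mPIA males and at 4564, 3434, 3999.7 and 3471 CPM in sPIA males. All 4 sPIA females lay above all other females, with a change of 0.28 ± 0.080 SE, adjusted p = 0.0185, while the male groups overlapped. The call was lost on leaving out NBC female 1 (0.27) or sPIA female 1 (0.23) and held with the GC trend removed (0.34). Camk2b lay at 1194, 1096, 1136 and 1217 CPM in NBC females, at 1150.1, 1177, 1132 and 1085 CPM in mPIA females and at 1305, 1273, 1299 and 1249 CPM in sPIA females. Levels of Camk2b in males stood at 1359, 1109 and 1087 CPM in NBC males, at 1439, 1368, 1399 and 1357 CPM in mPIA males and at 1287, 1029, 1333 and 1152 CPM in sPIA males. Its change in sPIA females was 0.14 ± 0.069 SE, adjusted p = 0.165, not called although the sPIA and NBC females did not overlap. Camk2g (chromosome 14, 20734875 to 20794088, minus strand), the gamma subunit, lay at 216, 173, 199 and 213 CPM in NBC females, at 212, 195, 193 and 188 CPM in mPIA females and at 152, 184, 163 and 171 CPM in sPIA females. It fell by 0.26 (SE 0.066, adjusted p = 0.00833), was lost on leaving out NBC female 1 (-0.21) and held with the GC trend removed (-0.22). Camk2d differed by -0.062 ± 0.11 and did not pass.

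None of the scaffold genes passed the test in sPIA females. Of the 4 guanylate kinases, the 4 proteins associated with them and the 3 Shanks, 0 of 11 passed by edgeR or by DESeq2, and 0 of 11 had an unadjusted p below 0.05. Over all genes 4502 of 15475 had such a p by edgeR. Dlg4 lay at 873, 865, 787 and 779 CPM in NBC females, at 833, 829.9, 794 and 781 CPM in mPIA females and at 824, 837, 815 and 826 CPM in sPIA females. Levels of Dlg4 in males stood at 885, 836 and 781 CPM in NBC males, at 986, 902, 896 and 949 CPM in mPIA males and at 808, 762, 831 and 817 CPM in sPIA males. Its change in sPIA females was -0.0011 ± 0.053, the smallest in size of the 39 genes. Dlg3, which encodes SAP102, the scaffold of immature synapses, lay at 271, 289.8, 275 and 284 CPM in NBC females, at 267, 276, 273 and 278 CPM in mPIA females and at 273, 294, 323 and 315 CPM in sPIA females. Levels of Dlg3 in males stood at 308, 315 and 271 CPM in NBC males, at 303, 340.1, 314 and 316 CPM in mPIA males and at 338, 288, 304 and 295 CPM in sPIA males. Its change was 0.11 ± 0.062. Dlg1 and Dlg2 differed by -0.10 ± 0.14 and 0.038 ± 0.055. Dlgap1, Dlgap2, Dlgap3 and Dlgap4, which join these kinases to the Shanks, differed by 0.11, 0.049, -0.18 and -0.083, and Shank1, Shank2 and Shank3 by 0.13, 0.039 and -0.068. With the GC trend removed, edgeR called Shank1 (0.29) and Gria3 (-0.31), which the counts as deposited did not.

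Among the neuroligins 1 rose and 1 fell. Nlgn1 (chromosome 3, 25426215 to 26332460, minus strand), which acts at excitatory synapses, lay at 100.5, 122, 99.8 and 114 CPM in NBC females, at 98.5, 102, 100.2 and 115 CPM in mPIA females and at 122, 133, 148 and 127 CPM in sPIA females. Levels of Nlgn1 in males stood at 127, 127 and 123 CPM in NBC males, at 105, 130.4, 120.3 and 112 CPM in mPIA males and at 165, 121, 139.8 and 127 CPM in sPIA males. Of the sPIA females 3 lay above all NBC females and the fourth was within their range. The change was 0.28 ± 0.087 SE, adjusted p = 0.0269. The call was lost on leaving out NBC female 1 (0.25), NBC female 3 (0.25) or sPIA female 3 (0.23), and with the GC trend removed the change was 0.034. Nlgn2 (chromosome 11, 69823122 to 69837784, minus strand), the neuroligin of inhibitory synapses, lay at 317, 301, 283 and 303 CPM in NBC females, at 284, 289, 272 and 285 CPM in mPIA females and at 270.3, 275, 242 and 274 CPM in sPIA females. All sPIA females lay below all NBC females, with a change of -0.18 ± 0.063 SE, adjusted p = 0.0471, but leaving out any library other than NBC female 3 lost the call (changes from -0.19 to -0.13). With the GC trend removed the Nlgn2 change was 0.00034. Nlgn3 differed by 0.075 ± 0.070 and was not called. Genes on the opposite strand overlap exons of Grin1, Grm7 and Nlgn1 among the called genes, and without a known strand setting their reads cannot be told apart.

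**Figure D2:**
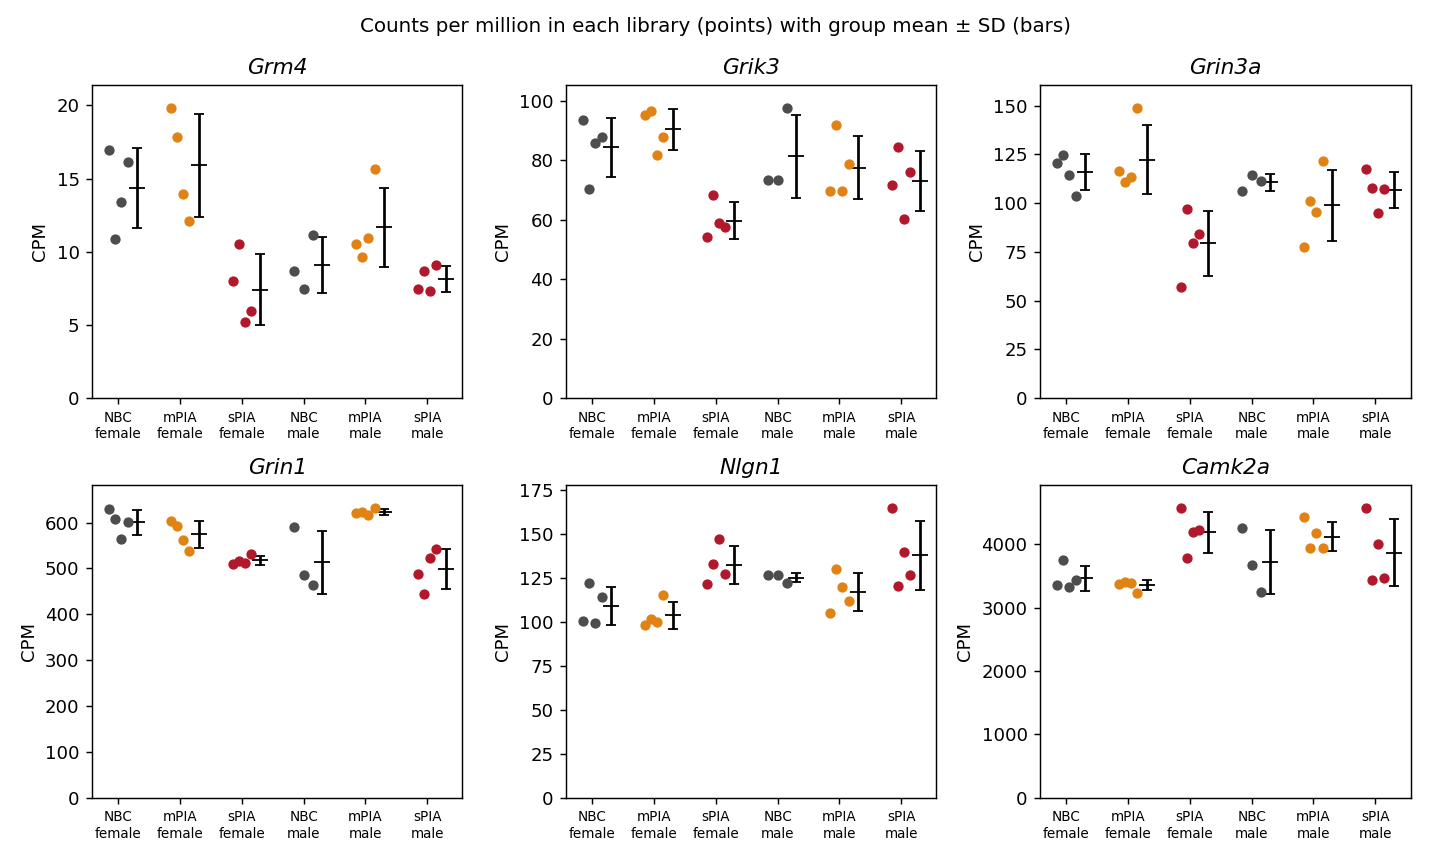
CPM in each library (points) with the group mean ± SD (bars; n = 4, NBC males n = 3) for the 6 genes with the smallest p over the pairwise comparisons. In sPIA females Grm4 lies at 5.18 to 10.5 CPM, Grik3 at 54.2 to 68.4 CPM and Grin3a at 57.1 to 97.1 CPM, below the other female groups.

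**Figure D3:**
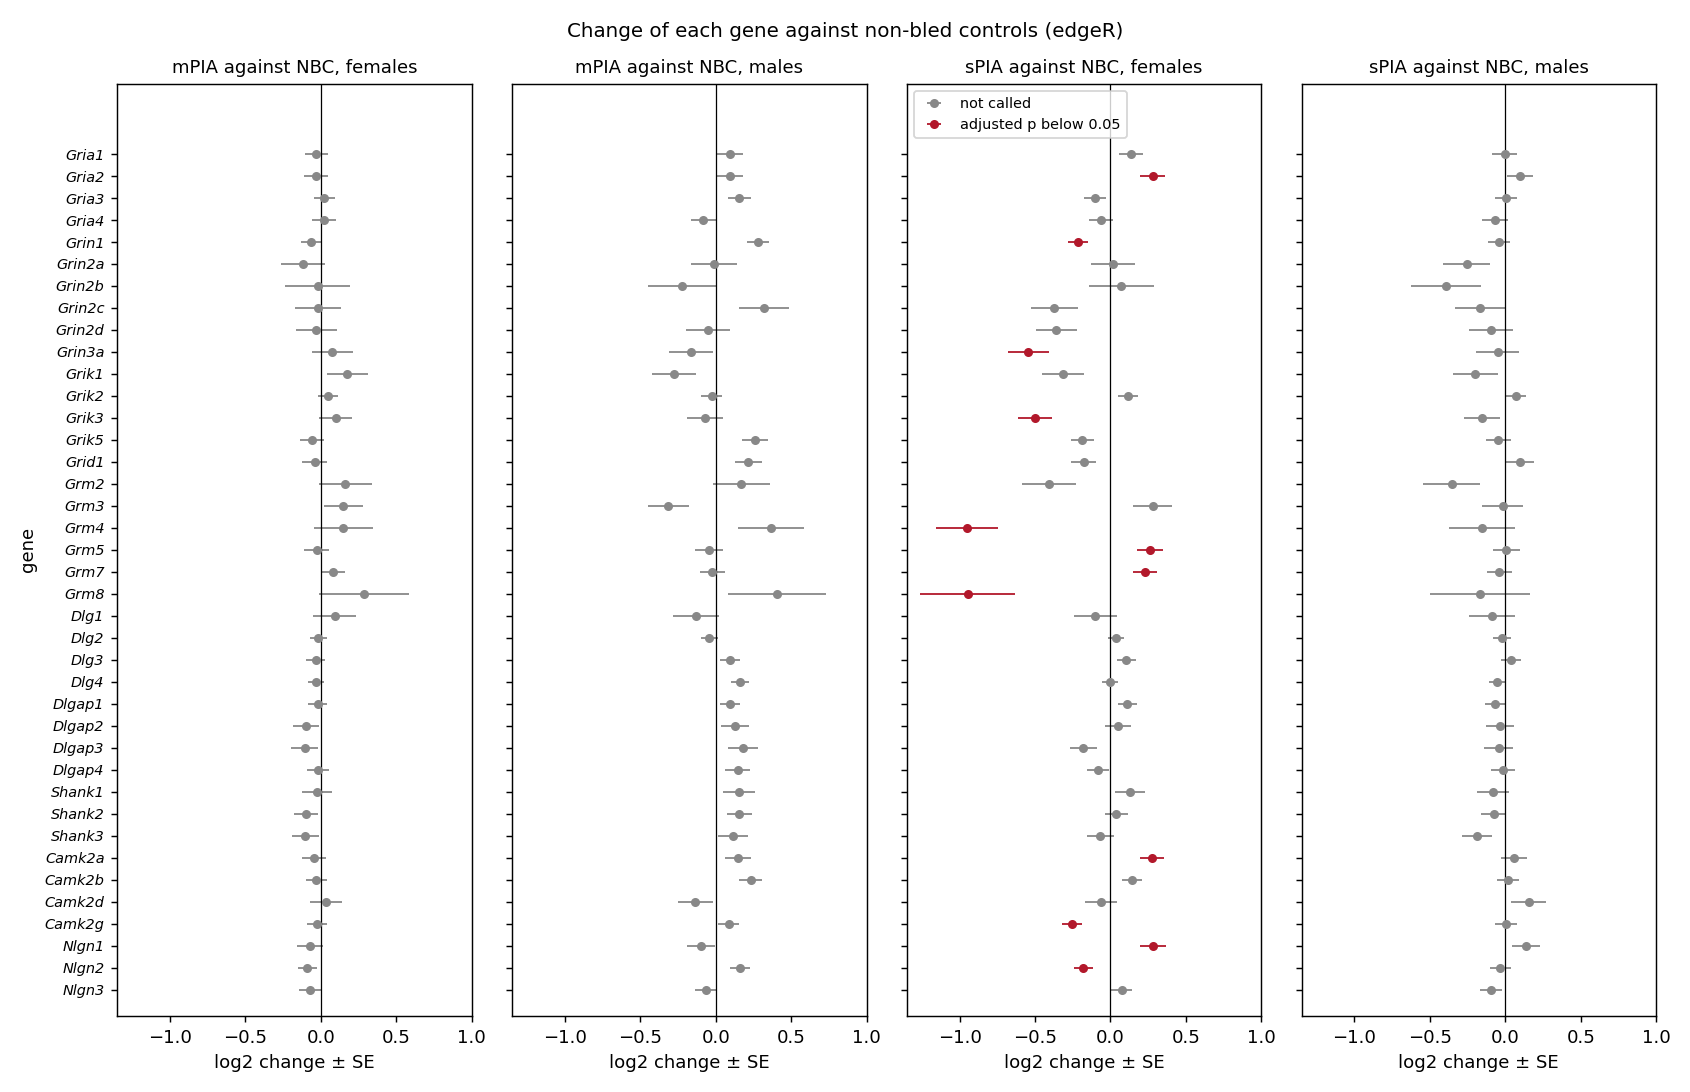
Log2 change ± SE of each of the 39 genes against NBC in the 4 comparisons of anemia with controls, red where the adjusted p lies below 0.05. The 12 red points are all in sPIA females, and no point is red in the other 3 panels.

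Promoters were searched for the core of the hypoxia response element, the DNA motif read by hypoxia-inducible factors, since anemia limits oxygen supply. Windows of 250 bases before a RefSeq start site (GRCm38.p6) were taken for the 24 of 39 genes matched there, using the site nearest the start of the gene in GENCODE. In 5 of them (Grin2d, Dlg2, Dlg3, Dlgap3 and Dlgap4) that site lay over 1000 bases from the GENCODE start, and 8 windows hold an exon of the gene itself. Windows of 3 genes are shown: Gria2, which rose, and Grin1 and Grik3, which fell. Capitals mark ACGTG or its reverse complement CACGT, searched on both strands. The form of the core that begins with G, GCGTG, was not searched and is left unmarked. A run of CACGTG holds both, and is also an E-box.
Gria2, chr3:80802836-80803085, minus strand: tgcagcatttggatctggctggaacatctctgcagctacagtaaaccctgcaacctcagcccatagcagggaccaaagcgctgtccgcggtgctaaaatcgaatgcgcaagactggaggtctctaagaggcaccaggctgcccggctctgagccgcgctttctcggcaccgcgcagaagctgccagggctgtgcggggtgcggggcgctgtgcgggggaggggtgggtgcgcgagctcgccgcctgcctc
Grin1, chr2:25319188-25319437, minus strand: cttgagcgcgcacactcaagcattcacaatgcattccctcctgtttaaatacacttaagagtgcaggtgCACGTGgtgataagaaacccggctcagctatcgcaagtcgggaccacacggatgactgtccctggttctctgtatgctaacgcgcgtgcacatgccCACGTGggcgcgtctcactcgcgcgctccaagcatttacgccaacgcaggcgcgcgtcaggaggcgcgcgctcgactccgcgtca
Grik3, chr4:125490446-125490695, plus strand: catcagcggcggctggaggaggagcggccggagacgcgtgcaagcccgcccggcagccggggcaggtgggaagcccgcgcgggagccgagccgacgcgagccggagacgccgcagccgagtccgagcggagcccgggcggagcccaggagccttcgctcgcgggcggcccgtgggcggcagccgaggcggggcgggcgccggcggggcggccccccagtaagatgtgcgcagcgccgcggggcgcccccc
The Grin1 window holds 4 matches, counted on either strand, all within its copies of CACGTG, and the Gria2 and Grik3 windows hold 0. ACGTG was found in 3 of the 24 windows (12.5%) and in 16.57% of the 32851 RefSeq windows of the same length. CACGTG was found in 2 of 24 (8.333%) and in 6.021% of all. Over the 19 windows within 1000 bases of the GENCODE start the counts were 3 (15.79%) and 2 (10.53%). The GC content of the windows had a median of 63.8% in the 24 genes and 52.4% over all, with 64.8% for Gria2 and 58.8% for Grin1. A match describes the letters only.

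Library composition moved with the sPIA female result. Transcript GC content ran from 36.8% (Gria2) to 65% (Grin2d) over the 39 genes. The 5 genes that rose had a median GC content of 42.5% and the 7 that fell 54.2%. For each library, its deviation from the gene means was ranked against GC content across genes, which are not independent. In the female libraries Spearman's rho was 0.18 to 0.55 (NBC), 0.15 to 0.47 (mPIA) and -0.44 to 0.03 (sPIA). In males it was -0.26 to 0.02 in NBC, -0.10 to 0.30 in mPIA and -0.40 to -0.08 in sPIA. Over the 39 genes rho between GC content and the change in sPIA females was -0.41, and it was -0.46 over all genes with a GC value. When each library's trend with GC content and length was fitted and taken out, 8 of 39 genes passed, beside 7.88% of all genes. Grin3a, Grik3, Grm4, Grm8, Camk2a and Camk2g passed in both analyses. Gria2, Grin1, Grm5, Grm7, Nlgn1 and Nlgn2 passed only without the correction, and rho over the 39 became 0.19. For mPIA against NBC males, rho between GC content and the change was 0.48 over the 39 genes and 0.25 over all genes with a GC value. Over the 39 it became 0.15 with the trend taken out.

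**Figure D4:**
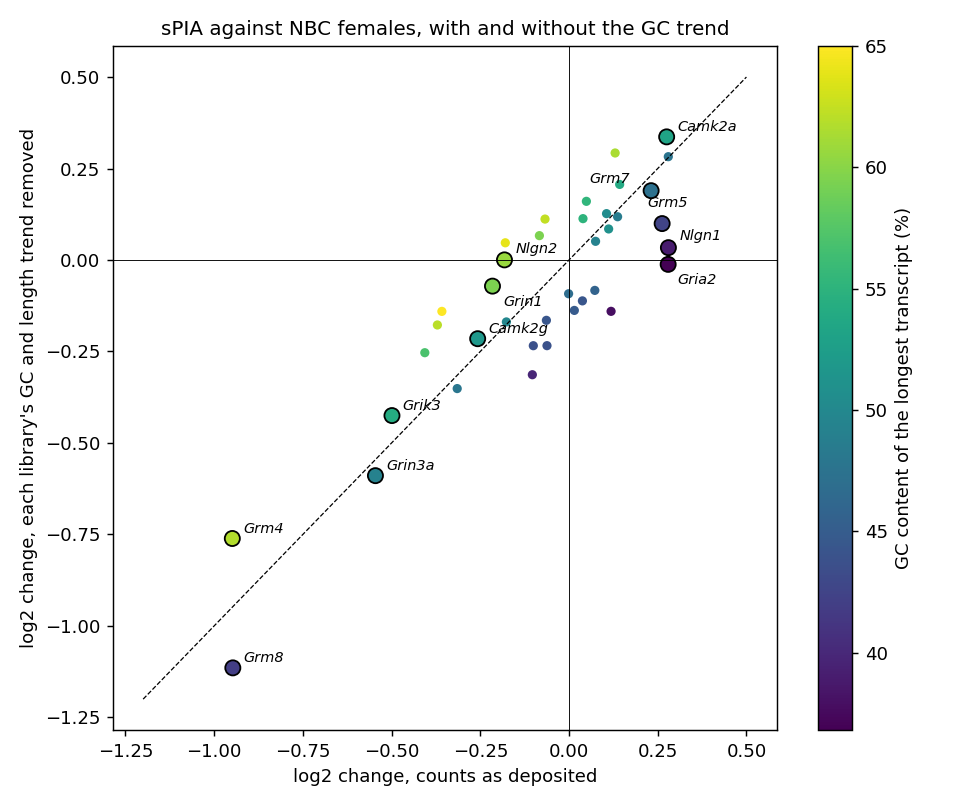
Log2 change of each of the 39 genes in sPIA against NBC females on the counts as deposited (horizontal) and after removal of each library's trend with GC content and length (vertical), coloured by GC content, with large outlined points for the 12 genes called on the counts. Gria2, Nlgn1 and Nlgn2 move to about 0 (-0.012, 0.034 and 0.00034), while Grm4 (-0.76), Grm8 (-1.11), Grik3 (-0.43) and Grin3a (-0.59) remain the lowest of the outlined points. The dashed line marks equal values.

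Markers of neuron classes also moved with sPIA in females. CA1 pyramidal markers summed to 383 to 589.7 CPM in sPIA females against 643 to 724 CPM in NBC females, and 3 of 6 fell, among them Pou3f1 (-0.80) and Mpped1 (-0.57). Markers of deep cortex and subiculum summed to 351 to 485 CPM against 412 to 636 CPM, and 3 of 8 fell: Nts (-2.89), Tshz2 (-2.51) and Fezf2 (-1.03). CA3 markers summed to 308 to 408 CPM against 252 to 264 CPM, and 1 of 5 with a row, Cpne4, rose (0.59). Inhibitory neuron markers overlapped (619 to 729 CPM against 669 to 739 CPM), and Slc32a1, the vesicular transporter of GABA, fell (-0.46). Dentate gyrus markers summed to 227 to 308 CPM against 168 to 244 CPM, astrocyte markers to 2674 to 3109 CPM against 2465 to 2583 CPM, and pan-neuronal markers to 5908 to 6372 CPM against 5968 to 6386 CPM. Fezf2, the defining marker of deep cortical neurons, was above 0 in every library, at 19.6 to 27.2 CPM in sPIA females and 44.4 to 54.1 CPM in NBC females. Marker values are from the counts as deposited and were not examined with the GC trend removed. The part of cell composition in the changes of the 12 genes was not tested.

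At severe anemia no difference was detected in males. None of the 39 genes passed in sPIA against NBC males by edgeR, none had an unadjusted p below 0.05 and DESeq2 called 0. Over all genes 0.194% passed by edgeR and 0.873% by DESeq2, and by edgeR 1880 of 15475 had an unadjusted p below 0.05. The largest change in size was that of Grin2b, -0.39 ± 0.23, and the smallest adjusted p was that of Shank3 (-0.19 ± 0.098 SE, adjusted p = 0.454). For the genes that fell in females, the male changes were -0.16 ± 0.22 for Grm4, -0.15 ± 0.12 for Grik3, -0.051 ± 0.14 for Grin3a, -0.17 ± 0.33 for Grm8, -0.040 ± 0.072 for Grin1, -0.032 ± 0.068 for Nlgn2 and 0.0056 ± 0.071 for Camk2g. For those that rose in females they were 0.10 ± 0.087 for Gria2, 0.0070 ± 0.091 for Grm5, -0.039 ± 0.084 for Grm7, 0.056 ± 0.086 for Camk2a and 0.14 ± 0.093 for Nlgn1. The median change was -0.04 against 0.00089 over all genes tested. This comparison rested on 3 controls, 2 of which carried most of the choroid plexus signal in males, and the code numbers of the groups do not overlap.

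The difference between the sexes was tested as an interaction. For sPIA, 0 of 39 genes passed by edgeR and by DESeq2, beside 0.95% and 3.64% of all genes. By edgeR 7 had an unadjusted p below 0.05, beside 2559 of all 15475 genes. The smallest adjusted p were those of Camk2g (-0.26 ± 0.097 SE, adjusted p = 0.168), Grm4 (-0.79 ± 0.30 SE, adjusted p = 0.185) and Grin3a (-0.49 ± 0.20 SE, adjusted p = 0.217), as female minus male change. The 12 calls in sPIA females and the 0 in sPIA males were therefore not shown to differ for any single gene. For mPIA, 0 of 39 genes passed by edgeR and by DESeq2, with 0% of all genes. Beside 1103 of all 15475 genes, 10 of the 39 had an unadjusted p below 0.05 by edgeR. The first was Grin1 (-0.35 ± 0.098 SE, adjusted p = 0.633), which alone passed without NBC male 2 (-0.44).

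Severe was also set against moderate anemia. This comparison shares its sPIA libraries with the comparison to controls, so the values are given for their own sake. In females 11 of 39 genes (28.2%) passed, 4 higher and 7 lower, with 16.1% of all genes, 8.67% higher and 7.48% lower. Here 19 had an unadjusted p below 0.05 by edgeR, beside 4557 of all 15475 genes. DESeq2 called the same 11 genes, beside 19.8% of all genes. The genes that rose were Gria2 (0.31 ± 0.081 SE, adjusted p = 0.00863), Grm5 (0.29 ± 0.085 SE, adjusted p = 0.0182), Camk2a (0.32 ± 0.080 SE, adjusted p = 0.0061) and Nlgn1 (0.35 ± 0.086 SE, adjusted p = 0.00589). The genes that fell by over 0.5 were Grm8 (-1.23 ± 0.31), Grm4 (-1.10 ± 0.20), Grin3a (-0.62 ± 0.14), Grik3 (-0.60 ± 0.11) and Grm2 (-0.57 ± 0.18), with adjusted p = 0.00875, 0.000569, 0.00329, 0.000823 and 0.0314. Grik1 (-0.49 ± 0.14 SE, adjusted p = 0.0152) and Camk2g (-0.23 ± 0.066 SE, adjusted p = 0.0145) completed the list. Grik1 (chromosome 16, 87895900 to 88290265, minus strand) lay at 31.8, 25.8, 37.5 and 29.5 CPM in NBC females, at 34.5, 33.3, 34.5 and 38.5 CPM in mPIA females and at 22.7, 30.1, 24.6 and 22.7 CPM in sPIA females, and Grm2 (chromosome 9, 106643095 to 106656082, minus strand) at 64.3, 29.6, 50.9 and 46.5 CPM in NBC females, at 60.6, 58.1, 48.4 and 46.9 CPM in mPIA females and at 29.5, 42.1, 34.5 and 38.2 CPM in sPIA females. Both were lower in every sPIA female than in any mPIA female, while they overlapped with the NBC females. The Grm2 call was lost on leaving out mPIA female 1 (-0.49), mPIA female 2 (-0.52), sPIA female 1 (-0.49), sPIA female 3 (-0.54) or sPIA female 4 (-0.59), Grm5 without mPIA female 1 (0.27), mPIA female 3 (0.28) or sPIA female 3 (0.21), Camk2g without mPIA female 1 (-0.19) or sPIA female 3 (-0.21) and Grik1 without sPIA female 4 (-0.44). With the GC trend removed 11 genes passed, beside 9.51% of all genes, and 7 of them were among the 11 called on the counts. Gria2 (0.024), Grm2 (-0.42), Grm5 (0.13) and Nlgn1 (0.11) were not called, while Camk2b, Gria3, Shank1 and Shank2 were.

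In males 3 of 39 genes (7.69%) passed in sPIA against mPIA, all lower, beside 4.92% of all genes, 2.8% lower. Here 18 had an unadjusted p below 0.05 by edgeR, beside 3447 of all 15475 genes. DESeq2 called 7 genes, beside 7.55% of all genes. The sPIA males had 444 to 542 CPM of Grin1 and the mPIA males 616 to 632 CPM, with no overlap and a change of -0.32 ± 0.066 SE, adjusted p = 0.00794. Grik5 (chromosome 7, 25009849 to 25072346, minus strand) lay at 286, 244 and 209 CPM in NBC males, at 319.9, 281, 275 and 306 CPM in mPIA males and at 223, 222, 257 and 254 CPM in sPIA males, a change of -0.31 ± 0.079 SE, adjusted p = 0.0252. Dlg4 (chromosome 11, 70016942 to 70047522, plus strand), whose values are given above, changed by -0.21 ± 0.053 SE, adjusted p = 0.0225. The mPIA males were the higher group for all 3 genes, above every NBC male for Grin1 and Dlg4. Both Grik5 and Dlg4 lost their call without any 1 of mPIA male 1 (-0.26 and -0.18), mPIA male 4 (-0.28 and -0.20), sPIA male 1 (-0.27 and -0.21) or sPIA male 2 (-0.27 and -0.18). With the GC trend removed Dlg4 was still called (-0.26), while Grin1 (-0.15) and Grik5 (-0.10) were not. The code series M and P and the anemia level cannot be told apart here. In the same males the CA1 markers summed to 495 to 626 CPM in sPIA and 707 to 763 CPM in mPIA. Their part in the result was not tested.

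Females were compared with males among the non-bled controls. Here 2 of 39 genes (5.13%) passed, both higher in females, beside 10.1% of all genes: Grik5 (0.29 ± 0.085 SE, adjusted p = 0.0313) and Grin1 (0.23 ± 0.072 SE, adjusted p = 0.0417). Grik5 lay at 300.3, 314, 282 and 307 CPM in NBC females and at 286, 244 and 209 CPM in NBC males, and NBC male 4 had the lowest value. Without NBC male 4 the changes were 0.18 for Grik5 and 0.15 for Grin1, and neither passed. Both were also lost without NBC male 3 (0.28 and 0.19), NBC female 1 (0.28 and 0.20), NBC female 2 (0.26 and 0.21) or NBC female 4 (0.27 and 0.22). NBC males 3 and 4 held 2616 and 4662 CPM of choroid plexus transcripts, and with a choroid plexus score in the fit the changes were 0.24 and 0.18. The code series of NBC females and NBC males also differ, and cannot be told apart from sex. Transcript GC content was 61.7% for Grik5 and 59.4% for Grin1. Spearman's rho of library deviation with GC content was 0.18 to 0.55 in NBC females and -0.26 to 0.02 in NBC males. With the GC trend removed, 291 of 15475 genes were called higher in females and 358 lower. The changes of Grik5 and Grin1 after that removal are not reported here. DESeq2 called 6 genes, beside 13.51% of all genes: Grik5, Grin1 and Grm4 higher in females, and Grm3, Grm5 and Nlgn3 lower.

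Ratios between paired subunits, known to shift during postnatal maturation, were compared within libraries as log2 ratios of counts, with gene length left in. The ratio of Grin2a to Grin2b was -1.56 ± 0.20 against -1.52 ± 0.18 in sPIA and NBC females (SD, n = 4 each), and -1.58 ± 0.22 against -1.71 ± 0.12 in sPIA and NBC males (SD, n = 4 and 3). Neither difference passed the test (exact permutation test, two-sided, p = 0.771 and 0.429). The ratio of Camk2a to Camk2b was 1.71 ± 0.10 against 1.58 ± 0.13 in sPIA and NBC females and 1.71 ± 0.10 against 1.56 ± 0.023 in sPIA and mPIA females (exact permutation p = 0.200 and 0.0857). For Dlg4 to Dlg3 the ratio was 1.46 ± 0.12 against 1.56 ± 0.10 in sPIA and NBC females and 1.40 ± 0.097 against 1.55 ± 0.12 in sPIA and mPIA males (exact permutation p = 0.257 and 0.0857). Over the 18 comparisons of 3 ratios, the smallest raw p of the exact permutation test was 0.0857, and adjusted p ran from 0.514 to 0.971. With 4 against 4 libraries the test cannot go below 0.0286, and with 4 against 3 not below 0.0571.

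**Figure D5:**
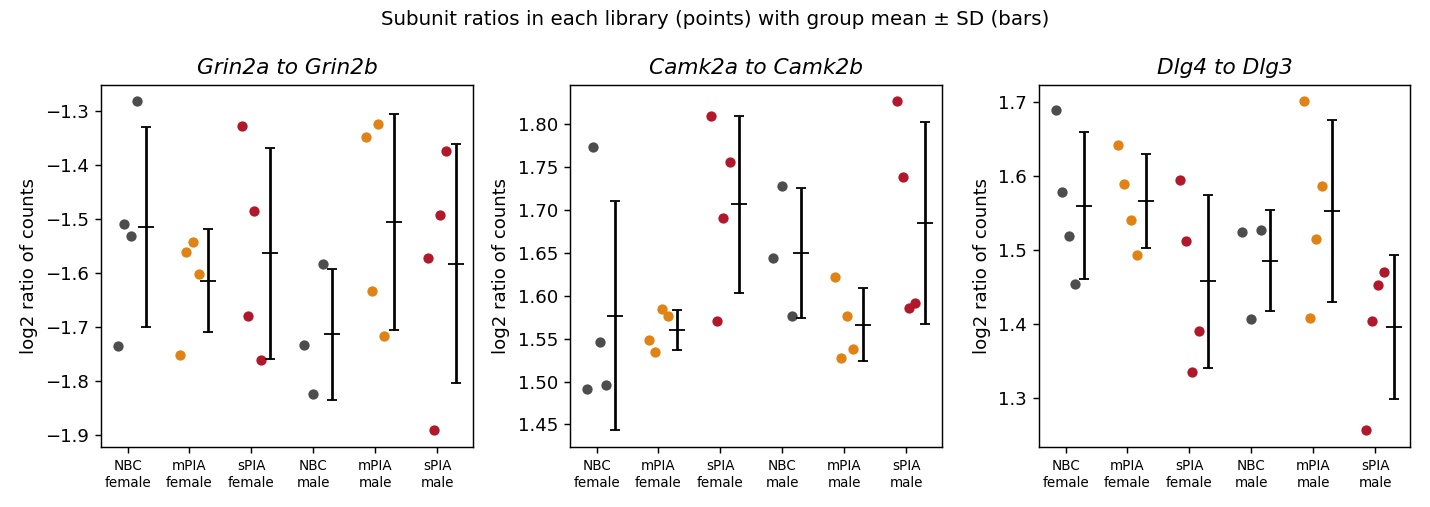
Log2 ratio of counts of 3 subunit pairs in each library (points) with the group mean ± SD (bars; n = 4, NBC males n = 3). Groups overlap in each panel, and none of the 18 exact permutation tests gave a p below 0.0857.

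The other genes of the glutamate synapse were followed in 5 lists, and like the 39 genes they moved in both directions in sPIA females. Of the 98 genes tested in them, 31 passed in sPIA against NBC females, beside 16% of all genes, 8.12% higher and 7.86% lower. The lists were chosen with earlier results known, so nothing particular to them is read from this count. List values, here and in the next paragraph, are from the counts as deposited and were not examined with the GC trend removed. In sPIA against NBC females that removal took the share of all genes called from 16% to 7.88%. In mPIA females, mPIA males and sPIA males against NBC, edgeR called 0 of 98, with 0, 20 and 7 at an unadjusted p below 0.05. Over all 15475 genes 55, 2475 and 1880 had such a p. Of 20 auxiliary subunits of receptors, 4 rose and 4 fell in sPIA against NBC females, with a median change of -0.11. Cacng2, the AMPA receptor auxiliary protein stargazin, rose (0.43 ± 0.070 SE, adjusted p = 0.000208), while its relatives Cacng7 (-0.57) and Cacng3 (-0.38) and the AMPA receptor regulator Gsg1l (-0.74) fell. Of 30 other scaffold and signalling genes 4 rose and 3 fell, among them Ppp3ca, the catalytic subunit of calcineurin, higher (0.42), and neurogranin (Nrgn), which binds calmodulin, lower (-0.30).

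Of 25 synaptic adhesion genes 2 rose and 6 fell in sPIA females. The ephrin receptor gene Epha4 rose (0.50), while Lrfn4 (-0.50) and Lrfn1 (-0.43), adhesion proteins that bind PSD-95, fell. Of 20 genes of glutamate release and clearance 5 rose and 1 fell. The astrocytic glutamate transporter gene Slc1a3 (0.30), the glutamine transporter gene Slc38a1 (0.26) and the active zone gene Rims1 (0.25) rose, and the syntaxin gene Stx1a fell (-0.37 ± 0.075 SE, adjusted p = 0.00149). Stx1a was the one gene of the 5 lists whose sPIA effect differed between the sexes (-0.51 ± 0.11 SE, adjusted p = 0.0271, female minus male change). In sPIA against mPIA males 8 of the 30 scaffold and signalling genes fell and 0 rose, beside 2.8% of all genes lower and 4.92% called either way. Among those that fell were Nrgn (-0.30), Iqsec2 (-0.29) and dendrin (Ddn, -0.48). In that comparison Cacng8 fell (-0.54) and Lrrtm2 rose (0.33).

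Within groups, some of the 39 genes varied together from mouse to mouse. Pearson's r of deviations from the group mean over the 23 libraries, which share depth and GC trends, was 0.86 for Grik3 with Grm8, 0.85 for Grm5 with Nlgn1 and 0.84 for Grin2a with Grin2b. It was -0.92 for Grik1 with Camk2a, the most negative value of the 741 pairs. The 3 Shank pairs had a median of 0.71, against 0.08 over all 741 pairs. These values describe the libraries and carry no test.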

How the data were processed

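Polyadenylated RNA of whole hippocampus was sequenced in 23 libraries. The deposited values are raw gene counts: whole numbers whose totals differ between libraries. The tools listed in the submitters' processing notes are FastQC, TopHat2 2.0.13, Subread and edgeR, and the build is mm10. Roles and order of these tools, gene annotation and strand setting are not stated, so counts of genes with an overlapping partner are uncertain.

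Groups were compared by the quasi-likelihood F test of edgeR (edgeR 4.0.16, limma 3.58.1, R 4.3.3) with TMM normalization, 1 mean per group and all 23 libraries in a single fit, which shared 1 estimate of the spread (common biological coefficient of variation 12.2%). Genes with low counts were removed (filterByExpr, minimum count 10, minimum total 15), which left 15475 of 24421 rows. P-values were adjusted by Benjamini-Hochberg over all 15475 genes of a comparison, with a threshold of 0.05. Log2 CPM used a prior count of 2. The design text describes separate animals. Library totals were 15.2 to 44.4 M counts (M, mega-counts), and low genes such as Grm8 rest on fewer counts than the others. Replicates of a group differed by more than counting noise in every pair (chi-square divided by degrees of freedom, 3.09 to 31.3), and none was merged. No column of the table was left without a sample.

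Alternatives were DESeq2 1.42.0, limma-voom, other size factors, no filter, a fit of only the groups compared, a replicate block, removal of each library's trend with GC content and length (splines of 4 degrees of freedom, 96.2% of tested genes with a value, GENCODE M21 on mm10), a choroid plexus score, the code prefix as a block, and leaving out each library. Ratios of subunits used a prior count of 0.5 and exact permutation tests (Python 3.11.15). Figures were drawn with matplotlib 3.10.9.

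The 39 genes, the 5 lists and the markers were chosen with earlier results of these data known. All 39 genes are accounted for. Genes named are those called in a comparison, the 6 with the smallest p over the pairwise comparisons, Grin2a, Grin2b, Camk2a, Camk2b, Dlg3 and Dlg4, and of each list up to 4 called genes by smallest p. Other members are named with their values to complete a family. Some genes of the lists and markers are not reported here by name.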

Additional observations from a re-analysis of the deposited data

Results flagged for a closer look

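Within the groups of 4 libraries, 195 sets of values were searched for a library far from the other 3, and 8 were found, where chance would give about 5% (9.75). Gria2 was low in sPIA male 4 (1151 CPM) and Shank2 in sPIA male 3 (165 CPM), while Grin3a was high in mPIA female 4 (149 CPM). In mPIA male 2, Gria3 (347 CPM) and Dlg1 (122 CPM) were high and Grin2c (40.5 CPM) low beside the other 3 mPIA males. In sPIA female 3, Grin2c (24.3 CPM) and Nlgn2 (242 CPM) were below the other sPIA females, and sPIA female 3 also had the lowest correlation of level with GC content among the female libraries (Spearman's rho -0.44 across genes).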

How the results depend on the processing

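Counts of called genes stayed within 1.5 times the main count in 132 of 156 alternatives. The 156 include comparisons with a main count of 0 (mPIA females, mPIA males, sPIA males and both sex differences). The pooled share therefore says little about the comparisons with calls. For sPIA against NBC in females, leaving out 1 library gave 3 to 10 calls in place of 12: 3 without NBC female 1 (9.19% of all genes called), 5 without sPIA female 3 (10.1%) and 7 without NBC female 4 (13.47%) or sPIA female 2 (13%). The other ranges were 0 to 5 (mPIA against NBC males), 8 to 11 (sPIA against mPIA females), 1 to 5 (sPIA against mPIA males), 0 to 1 (sex difference of the mPIA effect) and 0 to 2 (NBC females against males), and 0 throughout for mPIA females, sPIA males and the sex difference of the sPIA effect. Over all genes, these fits called 0 to 495 higher and 0 to 629 lower in mPIA against NBC males. In sPIA against mPIA they called 905 to 1468 and 677 to 1301 in females, 96 to 568 and 133 to 773 in males. In NBC females against males they called 155 to 983 and 285 to 1169. The sex difference of the mPIA effect had 44 and 25 without NBC male 2. DESeq2 called 1 gene in mPIA against NBC males, 7 in sPIA against mPIA males and 6 in NBC females against males, beside 2.26%, 7.55% and 13.51% of all genes. A fit of only the groups compared called 5 in sPIA against mPIA males, beside 121 higher and 186 lower of 14756 genes. In NBC females against males 1 gene was called without the filter, with only the groups compared, with the GC trend removed and with the choroid plexus score. Over all genes those settings called 590, 281, 291 and 327 higher, and 752, 387, 358 and 445 lower, in that order.

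Same-numbered libraries did not deviate together in every pair (r from -0.08 to 0.15), so numbers were not taken to pair mice. In NBC and mPIA females, which share the first part of the code number by number, r was 0.11, 0.036, 0.12 and 0.15, and over all genes 55 had an unadjusted p below 0.05 in the fit of all libraries, 298 in a fit of these groups alone and 406 with the code block added (1, 2 and 6 calls). With a replicate block the calls were 11 in sPIA against NBC females, 11 in sPIA against mPIA females and 4 in sPIA against mPIA males. They were 0 elsewhere, NBC females against males included. Of all 15475 genes, 1210 were then higher and 1168 lower in sPIA against NBC females. The counts were 1301 and 1111 in sPIA against mPIA females, and 287 and 396 in sPIA against mPIA males. In NBC females against males they were 536 and 644. In mPIA and sPIA against NBC males they were 6 and 37, and 14 and 28. Of single genes, 348 values kept their call and direction, 96 lost the call and 2 reversed with the GC trend removed: Gria2 (-0.012) and Nlgn2 (0.00034) in sPIA against NBC females. Why was not tested. Ratios, none of which passed, changed sign in 12 of 192 alternatives, and their ranges with 1 library left out follow. Grin2a to Grin2b ran from -0.13 to 0.029 in sPIA against NBC females (0.029 without NBC female 4, 0.018 without sPIA female 4), from -0.028 (without sPIA female 1) to 0.12 in sPIA against mPIA females, and from -0.15 to 0.026 (without sPIA male 2) in sPIA against mPIA males. Camk2a to Camk2b ran from -0.045 to 0.050 (without NBC female 2) in mPIA against NBC females. In sPIA against NBC males it ran from -0.011 (without sPIA male 1) to 0.075, with -0.00083 without NBC male 4 and -0.011 with the replicate block. Dlg4 to Dlg3 in mPIA against NBC females ran from -0.029 to 0.049, and was -0.0077 without NBC female 3, -0.029 without NBC female 4, -0.019 without mPIA female 1 and -0.0014 without mPIA female 2. Grm8 and Grm4 were the lowest in CPM of the genes called, and the part of depth in their spread was not tested.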
